A study of Bos taurus with 6 samples.

Results

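The last megabase of each bovine autosome was examined in MIRA-Seq libraries, which count the DNA fragments that a complex of methyl-CpG binding proteins pulls down. Its members were the 3 kb windows of chromosomes 1 to 29 that end within 1000000 bp of the highest window end of their chromosome, positions being those of the assembly UMD v3.1. This gave 9684 windows of the 837246 windows on these chromosomes (1.16%) and of 902984 in all. Chromosomes 4 and 8 gave 333 windows each, and the other 27 chromosomes gave 1 more. The rule uses position alone and no measured value.

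The libraries came from dermal fibroblasts of 3 Holstein heifers, each sampled at 5 and at 16 months of age, with 1 library per animal and age. All cultures were at passage 5 and none had received LPS, the bacterial lipopolysaccharide with which the study challenged fibroblasts in its other experiments. The study asked whether DNA methylation differs between the ages, which might bear on how cells of each age respond to LPS. Cultured skin cells of a few animals, chosen as mid-level responders, limit what these libraries can stand for.

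Bovine autosomes are acrocentric, so that the centromere lies near the start of a chromosome and most of its genes lie on a single long arm. The last megabase therefore neighbours the telomere, a stretch of short repeats that caps the chromosome. In mammals the DNA next to telomeres is often rich in genes, GC and CpG sites, and it also holds segmental duplications that assemblies render poorly. MIRA reads rise both with the level of methylation and with the number of CpG sites in a fragment. In active mammalian genes the CpG-rich promoter is usually unmethylated and the gene body methylated. Methylation and CpG number cannot be told apart here, so that "signal" below means captured DNA and not a methylation level.

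The files held 19.9 to 43.6 M (1000000) reads in windows per library. Signal is given as RPKM, the reads of a window per kb of its length and per 1000000 matched reads. The window at the very end of each chromosome runs into the next sequence in the files and was left out, 29 windows in all. A median of 66.3 reads fell on a window of the last megabases, against 4.83 on a window elsewhere, as means over 6 libraries. Windows with no read made up 2.53% ± 2.24 (SD, n = 6 libraries) of the last megabases and 14.8% ± 10.6 of the rest. Both libraries of animal 3 stood apart from the others in the last megabases, and the main ratios, the chromosome ratios, the gene medians and the age calls are given below with and without that animal.

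The last megabases carried several times the signal of the rest of the autosomes in every library. Their mean was 1.06 RPKM in animal 1 at 5 months and 1.13 RPKM at 16 months. It was 1.11 and 1.23 RPKM in animal 2 at the same ages, and 0.604 and 0.567 RPKM in animal 3. Both libraries of animal 3 thus lay below the other 4. In the rest of the autosomes the 6 libraries held 0.180 to 0.200 RPKM, with 0.180 and 0.193 RPKM in animal 3. The mean was 0.948 ± 0.286 RPKM (SD, n = 6) in the last megabases and 0.191 ± 0.00811 RPKM in the rest. The ratio was 4.76-fold on average, from 2.95 to 6.74, or 2.25 ± 0.479 on the log2 scale. It was above 1 in 6 of 6 libraries, which an exact two-sided sign-flip permutation test over the libraries gave p = 0.03125, the smallest value that 6 libraries allow. The same value remained after Benjamini-Hochberg adjustment over the 6 ratios tested between regions. The libraries of an animal are not independent, and over 3 animals the smallest exact permutation p is 0.25. Leaving out animal 3 raised the log2 ratio to 2.55. With all 6 libraries and each chromosome weighted alike it was 1.82.

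The excess did not come from a few windows alone. The median window held 0.450 ± 0.0910 RPKM in the last megabases and 0.0304 ± 0.0148 RPKM in the rest. Of the windows at the end, 14.2% belonged to the top 1% of all autosomal windows by signal, against 0.846% of the windows elsewhere. These 1374 windows held 50.5% ± 3.75 of the reads in the last megabases. Without the top 1% of windows in either region the means were 0.540 and 0.0970 RPKM. In all, the last megabases took 5.47% ± 1.56 of the autosomal reads, from 3.33% to 7.30%. Windows where a stack of reads at a single position made up over 0.5 of the count were 3.87% of the windows at the end and 2.57% elsewhere. Only windows with at least 20 reads in a library could qualify, while the shares are over all windows. A median of 4.83 reads fell on a window elsewhere, so the shares cannot be compared.

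**Figure D1:**
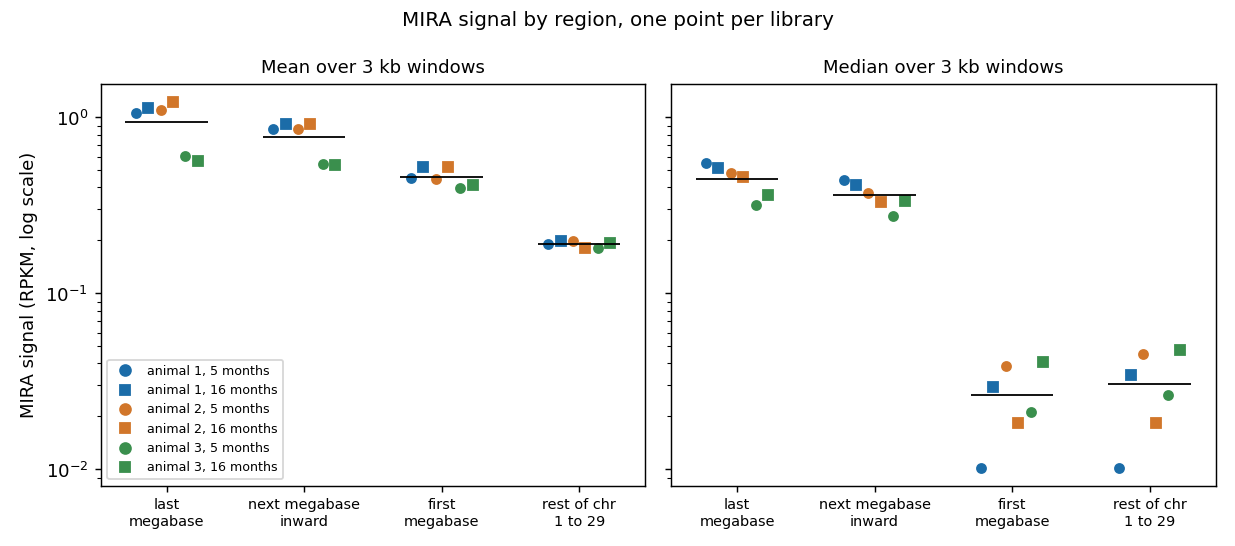
Mean (left) and median (right) MIRA signal over 3 kb windows in RPKM on a log axis for 4 regions of chromosomes 1 to 29, with 1 point per library, coloured by animal and shaped by age, and a line at the mean of the 6 libraries. The last megabase lies highest in both panels, at 0.948 RPKM by the mean and 0.450 RPKM by the median, and the green points of animal 3 lie below the others there but not in the rest of the chromosomes.

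The end of the chromosome was also set against its neighbour and against the opposite end. The next megabase inward held a mean of 0.772 ± 0.183 RPKM, so that the last megabase exceeded it 1.21-fold, from 1.06 to 1.33 between libraries, in 6 of 6 libraries (adjusted exact permutation p = 0.03125). This small difference rested in part on extreme windows, since without the top 1% of windows it was 0.08 on the log2 scale with an adjusted exact permutation p of 0.0625. The first megabase, on the centromere side, held 0.460 ± 0.0537 RPKM. The last megabase exceeded the first 1.98-fold, from 1.38 to 2.47, in 6 of 6 libraries (adjusted exact permutation p = 0.03125). The medians differed far more between the ends. The median window held 0.0265 RPKM in the first megabase, close to the 0.0304 RPKM of the rest.

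The excess was uneven among chromosomes. The last megabase exceeded the rest of its own chromosome in all 6 libraries on 23 of 29 chromosomes. Across all 1 Mb bins of the autosomes, 18.8% did so (474 of 2528). It was below the rest in all 6 libraries on chromosomes 13, 7, 1 and 27, and the libraries fell on both sides of 1 on chromosomes 28 and 18. Without the top 1% of windows 28 chromosomes lay above the rest in all 6 libraries. The ratio exceeded 5-fold on 15 chromosomes and its median over the 29 was 5.84-fold. By the median window every one of the 29 last megabases lay above the rest of its chromosome, and 28 did so in all 6 libraries.

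Chromosomes 12, 11, 20, 17 and 26 had the highest ratios. On chromosome 12 (90158422 to 91160621) the ratio was 20.4 and 19.1 in animal 1 at 5 and 16 months, 18.1 and 25.1 in animal 2, and 13.7 and 8.97 in animal 3, with a mean of 16.7-fold. Chromosome 11 (106305985 to 107308684) had the same mean ratio and ran from 10.6 to 25.7. Chromosome 20 (71039918 to 72041917) followed at 15.2-fold, from 8.23 to 23.2. Their medians were alike, at 1.39, 1.32 and 1.33 RPKM. The highest median of all, 1.72 RPKM, was found on chromosome 17 (74155794 to 75157793), with a ratio of 12.0-fold, from 6.86 to 17.8. On chromosome 26 (50677231 to 51679430) the ratio was 9.68-fold, from 5.57 to 14.5. Chromosomes 12, 20, 17 and 26 had no other 1 Mb bin with a higher median, and this held for 9 chromosomes in all. The last megabase was among the 3 highest bins by the median on 20 chromosomes.

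The low end of the order changed with the summary taken. Chromosome 27 (44404767 to 45406766) had no labelled window in its last megabase and a ratio of 0.240, from 0.134 to 0.312. On chromosome 1 (157333501 to 158335500) the ratio was 0.308, from 0.215 to 0.384, and 5.09% of windows were labelled. On chromosome 7 (111634946 to 112636945) it was 0.687, from 0.405 to 0.850. Chromosome 13 (83235797 to 84237796) had a ratio of 0.796, from 0.640 to 0.866, and only 3.59% of its last windows were labelled with a gene. In contrast, chromosome 18 (64999898 to 66001897) had 76.6% of its windows labelled and a ratio of 1.06, from 0.989 to 1.21. Across the 29 chromosomes the share of labelled windows and the log2 ratio had a Spearman rho of 0.30 and a Pearson r of 0.53, as a description, since the points share libraries. Without the top 1% of windows the log2 ratios of chromosomes 13, 7 and 1 turned from −0.33, −0.54 and −1.70 to 0.25, 1.03 and 0.59, and that of chromosome 27 was −0.40 in place of −2.06. Of the 28 neighbouring pairs in the order, 24 had ranges that overlapped between libraries. The exceptions were the steps from 19 to 14, from 24 to 28, from 18 to 13 and from 7 to 1.

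Both libraries of animal 3 had the lowest ratios on 25 of 29 chromosomes, where 15.6% of all 1 Mb bins did so. The cause was not tested. Without that animal the log2 ratios of chromosomes 12, 11, 20, 17 and 26 were 4.36, 4.28, 4.22, 3.86 and 3.57, against 4.06, 4.06, 3.92, 3.59 and 3.28 with it, and those of chromosomes 18, 13, 7, 1 and 27 were 0.13, −0.28, −0.29, −1.58 and −1.82. Without it 24 chromosomes lay above the rest in every library, and without animal 2 also 24.

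**Figure D2:**
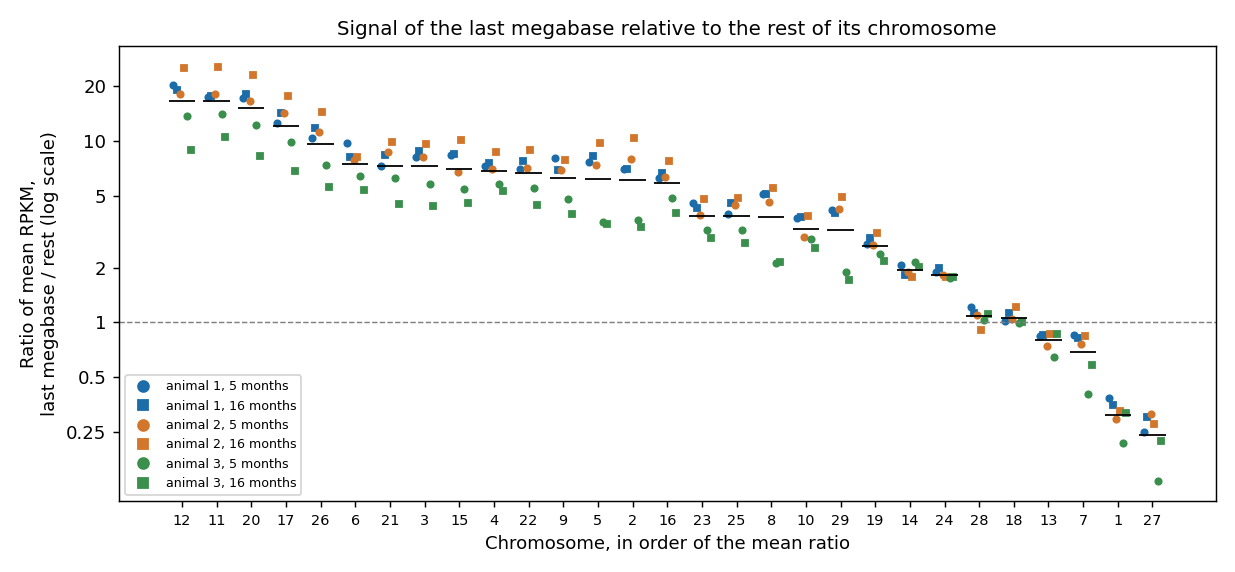
Ratio of the mean RPKM of the last megabase to that of the rest of its chromosome, on a log axis, for the 29 autosomes in order of the mean ratio, with 1 point per library and a line at the mean. Points lie above the dashed line of equal signal in all 6 libraries on 23 chromosomes and below it in all 6 on chromosomes 13, 7, 1 and 27, and the green points of animal 3 are mostly lowest.

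A few chromosomes broke the pattern of a high last and a low first megabase. Chromosome 25 was high at both ends, with medians of 1.42 RPKM in the last and 1.21 RPKM in the first megabase. Chromosome 14 held a mean of 4.74 RPKM in its first megabase and 0.350 RPKM in its last. The first megabase exceeded the last on 6 chromosomes by the mean and on 3 by the median window. On chromosome 13 the next megabase inward held 1.43 RPKM, against 0.148 RPKM in the last, most of it from the bin at 1100 to 1200 kb from the end, which held 11.9 RPKM. The next megabase exceeded the last on 13 chromosomes.

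Moving inward, the signal fell over several megabases rather than at the edge of the last. By bins of 1 Mb the mean fell from 0.948 RPKM to 0.772, 0.605, 0.447 and 0.303 RPKM in the fifth. The mean then rose to 0.472 RPKM in the next bin, whereas the median did not. The medians were 0.450, 0.362, 0.223, 0.132 and 0.0929 RPKM over the same first bins.

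Within the last megabase the very end behaved differently by the mean and by the median. The last 100 kb held a mean of 1.37 ± 0.437 RPKM, which was 1.52-fold that of the remaining 900 kb, from 1.38 to 1.74, in 6 of 6 libraries (adjusted exact permutation p = 0.03125). The median went the other way, at 0.150 RPKM in the last 100 kb and 0.489 RPKM in the remainder, a log2 ratio of −1.64 (adjusted exact permutation p = 0.03125). Without the top 1% of windows the ratio of means was −0.55 on the log2 scale. Chromosome 11 alone held 46.7% of the signal in the last 100 kb, and without a run of 8 windows there the ratio was −0.22 and below 0 in 6 of 6 libraries. A typical window of the last 100 kb therefore held less signal than one further in. By bins of 100 kb the median rose from 0.150 RPKM to 0.265, 0.473 and 0.547 RPKM in the fourth, and it lay between 0.394 and 0.583 RPKM beyond.

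**Figure D3:**
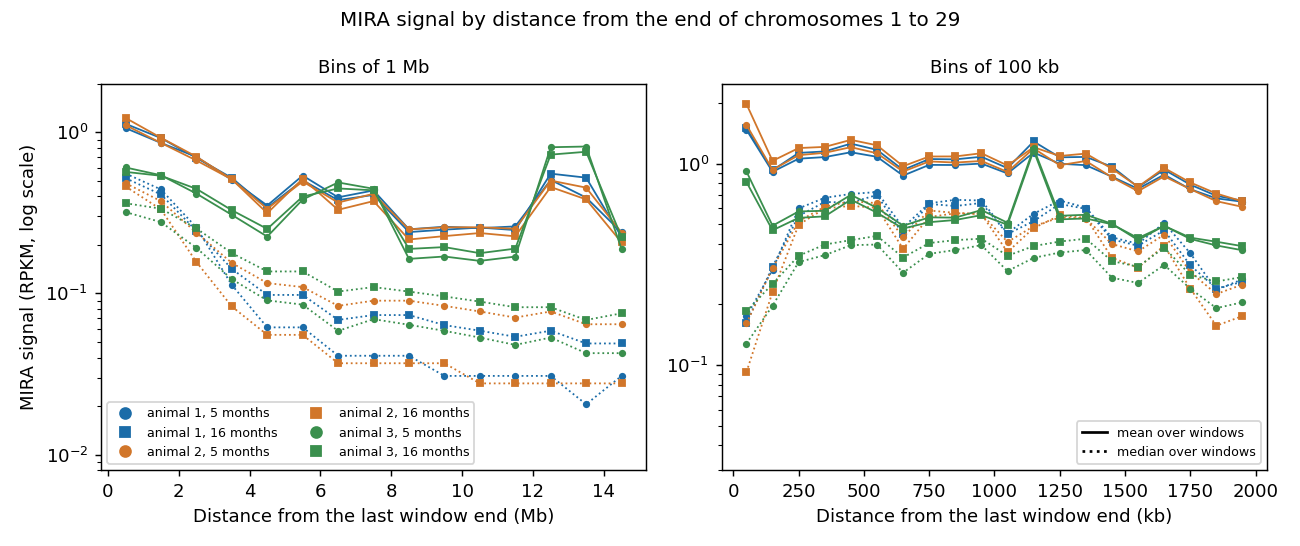
MIRA signal in RPKM on a log axis against the distance from the last window end, in bins of 1 Mb (left) and 100 kb (right), with solid lines for the mean and dotted lines for the median over windows of chromosomes 1 to 29 in each library. The mean falls from 0.948 to 0.303 RPKM over the first 5 bins of 1 Mb, and in the first 100 kb the mean is high at 1.37 RPKM where the median is low at 0.150 RPKM.

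The run at the end of chromosome 11 (107284685 to 107308684) held the highest windows of all last megabases. Its windows had 10.5 to 307 RPKM and no gene label. The window at 107284685 had 321 and 315 RPKM in animal 1 at 5 and 16 months, 339 and 503 RPKM in animal 2, and 206 and 159 RPKM in animal 3. All 6 libraries were high there, and the highest depth of coverage was 0.109 to 0.124 of the reads, so that no single stack held most of them. Other windows of the run were more stacked. The highest depth was 0.431 to 0.533 of the reads in the adjoining window, from 107287685, and up to 0.424 in that from 107299685. The run held 57.2% of the reads in the last megabase of chromosome 11 and 6.40% of those in all last megabases. Without it the ratio of the last megabase to the rest was 7.18-fold on chromosome 11 and 4.45-fold over all autosomes.

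Other chromosomes held single windows of high signal. The window of chromosome 4 from 120358205, inside WDR60, had 61.2 ± 19.0 RPKM. It was the exception to the order of animals, with 84.2 and 85.8 RPKM in animal 3 against 41.0 to 55.2 RPKM in the others, and its highest depth reached 0.551 of the reads. Windows labelled LOC789329 on chromosome 3 (from 121410510), LOC790134 on chromosome 4 (from 120643205) and LOC100298143 on chromosome 2 (from 137020734) held 56.8, 56.7 and 54.6 RPKM. An unlabelled window of chromosome 4, from 120819305, held 32.2 ± 7.12 RPKM. Its highest depth ran from 0.354 to 0.686 of the reads between libraries. Many ends held little signal. In the final 9 kb, 12 of 29 chromosomes exceeded the remainder of their last megabase and 9 held under 0.1 RPKM.

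**Figure D4:**
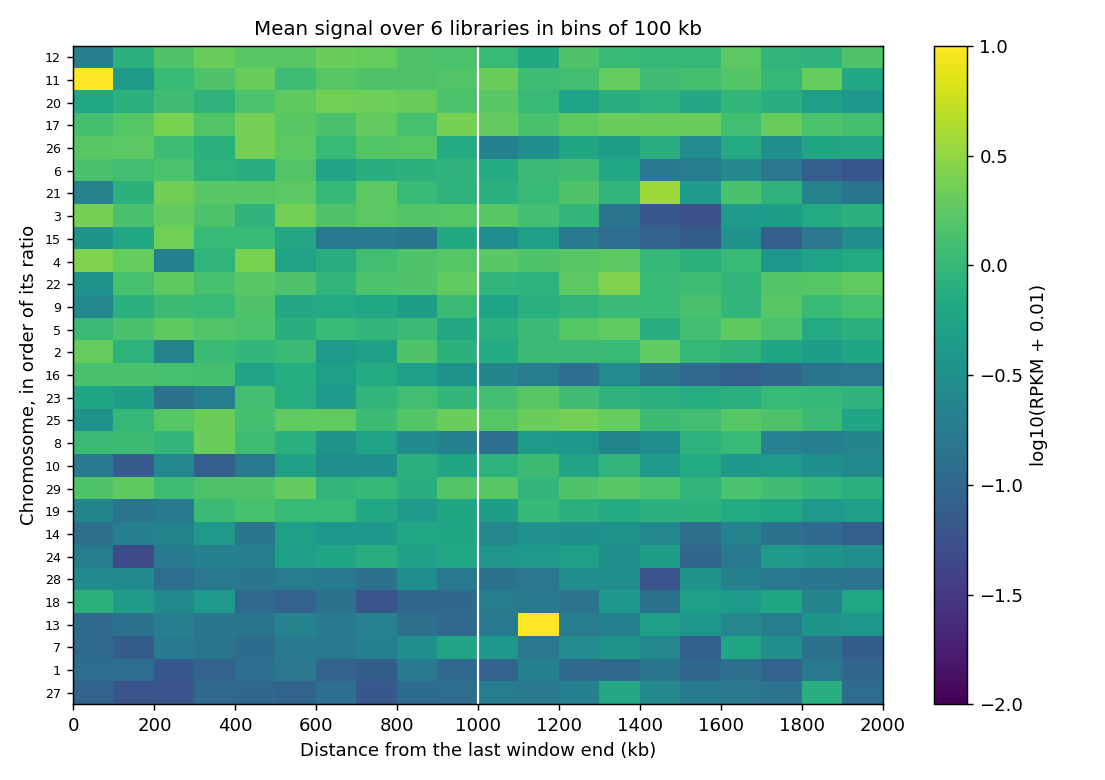
Mean signal of the 6 libraries as log10(RPKM + 0.01) in bins of 100 kb from the last window end (horizontal) for each autosome (vertical, in order of its ratio), with a white line at 1000 kb. Chromosomes at the top are bright over most of the megabase, chromosome 12 is dark in its last 100 kb at 0.187 RPKM, chromosome 11 has its brightest bin at the very end, and chromosome 13 is dark up to a bin of 11.9 RPKM at 1100 kb.

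Gene labels were more frequent at the ends, with 4571 labelled windows (47.2%, against 39.9% elsewhere) and 5113 unlabelled ones. Labelled windows of the last megabases held a mean of 1.11 ± 0.346 RPKM and unlabelled ones 0.804 ± 0.234 RPKM. The ratio was 1.37-fold, from 1.29 to 1.43, and above 1 in 6 of 6 libraries (adjusted exact permutation p = 0.03125). The medians were 0.674 and 0.304 RPKM. On the log2 scale the ratio of means was 0.46 with all windows pooled, and 0.21 with each chromosome weighted alike. Labelled windows lay above unlabelled ones by the mean on 20 and by the median on 21 of the 28 chromosomes with both kinds. In the rest of the autosomes labelled and unlabelled windows held 0.196 and 0.187 RPKM. The difference between the log2 ratios at the end and elsewhere was 0.39 ± 0.248, positive in 6 of 6 libraries (adjusted exact permutation p = 0.03125). It turned to −0.75 (adjusted exact permutation p = 0.0375) without the top 1% of windows. Unlabelled windows were high at the end as well, at 0.804 RPKM against 0.187 RPKM elsewhere.

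In the last megabases gene bodies carried more signal than gene starts. The promoter of a gene was taken to span its first labelled window, read along its strand, together with the adjoining upstream window. Promoter windows had a mean of 0.855 ± 0.280 RPKM over 953 windows. The other windows of genes had 1.14 ± 0.350 RPKM over 3950 and intergenic windows 0.810 ± 0.235 RPKM over 4781. Promoter windows were below gene bodies in 6 of 6 libraries, by −0.42 ± 0.0514 on the log2 scale (exact permutation p adjusted over 3 comparisons = 0.0469). Gene bodies were above intergenic windows by 0.48 ± 0.0548 in 6 of 6 libraries (adjusted exact permutation p = 0.0469). Promoter and intergenic windows differed by 0.06 ± 0.0896, positive in 5 of 6 libraries (adjusted exact permutation p = 0.156), and by 0.58 when medians were taken (adjusted exact permutation p = 0.03125). Among 367 genes with further windows, the first window held less than the others in 268 (73.0%), with medians of 0.513 and 1.31 RPKM. In the rest of the autosomes promoter and gene-body windows had means of 0.177 and 0.195 RPKM. Their medians there went the other way, at 0.0432 and 0.0391 RPKM, and the contrast between the ends and the rest was not tested.

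The files labelled 535 genes in the last megabases, 388 with a gene symbol and 147 as LOC or other predicted loci. The median gene held 1.17 RPKM over its windows, and 1.39 RPKM without animal 3, where the 23516 genes elsewhere had a median of 0.0827 RPKM. In all, 371 genes (69.3%) were above 0.5 RPKM. The LOC genes were lower, with a median of 0.393 RPKM, and 42 of the 147 lay above the median of all 535.

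Among named genes with at least 2 windows, the highest was B3GAT1 (chromosome 15, 85014657 to 85023656), a glucuronyltransferase that makes the HNK-1 sugar epitope, with 6.10 ± 1.68 RPKM over 3 windows. Its libraries had 6.79 and 7.62 RPKM in animal 1 at 5 and 16 months, 5.73 and 8.06 in animal 2, and 4.08 and 4.31 in animal 3, and 1 window gave 71.9% of its signal. SERPIND1, which encodes the thrombin inhibitor heparin cofactor II, had 4.45 ± 1.65 RPKM on chromosome 17, and WDR60, a part of the dynein-2 motor of cilia, 3.57 ± 0.747 RPKM on chromosome 4. In WDR60 81.7% came from the single window named above, and its median window held 0.540 RPKM. DGCR8, the partner of DROSHA in microRNA processing, had 3.49 ± 1.26 RPKM with equal shares in its 2 windows. SLC12A7, a potassium-chloride cotransporter, had 3.40 ± 1.04 RPKM spread over 9 windows, with 18.9% in the highest.

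The next 10 of these genes lay between 3.03 and 3.32 RPKM on 8 chromosomes. They were PHRF1, a PHD and RING finger protein (3.32 RPKM), CLPTM1L (3.21), the sphingomyelinase SMPD4 (3.20), the lipid kinase PI4KA (3.15), the tubulin-binding TPPP (3.13), the autophagy protease ATG4B (3.12), ATP4B, the beta subunit of the gastric proton pump (3.06), MAMDC4 (3.06), ABTB1 (3.05) and MTA1, a subunit of the NuRD chromatin complex (3.03). Of the 15 highest genes, 4 were on chromosome 17 and 3 on chromosome 20. SERPIND1 lies within the span of PI4KA, and the files give each window a single label, so that the signal of these genes is not separate. In each of the 15 except WDR60, the libraries of animal 3 were the lowest.

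The lowest named genes with at least 10 windows were TRIM69, an E3 ubiquitin ligase, with 0.0244 ± 0.0126 RPKM over 13 windows of chromosome 10, and the zinc finger genes ZNF154 (0.0645 RPKM) and ZIK1 (0.0900 RPKM) on chromosome 18. CTDSPL2, a phosphatase gene on chromosome 10, had 0.0720 RPKM, and MTBP, which encodes an MDM2-binding protein, 0.128 RPKM on chromosome 14.

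Gene families differed in level. Of 18 zinc finger genes, which encode DNA-binding repressors and related factors, 2 lay above the median of all genes at the ends, with a median of 0.256 RPKM (0.255 RPKM without animal 3). Of these 18, 14 were on chromosome 18, so that the family and the chromosome cannot be told apart, and the highest, ZNF74 (2.20 RPKM), was on chromosome 17. Solute carriers, the membrane transporters of the SLC families, were high, with 10 of 11 above the median of all genes and a median of 1.88 RPKM (2.302 RPKM without animal 3). These included SLC6A3, the dopamine transporter, at 1.88 RPKM, the amino acid transporters SLC6A18 and SLC6A19 at 2.55 and 2.35 RPKM and the sodium-proton exchanger SLC9A3 at 1.25 RPKM, all on chromosome 20. SLC12A7 lay on chromosome 20 as well, whose last megabase was among the highest, so that for these genes family and chromosome cannot be told apart. Of the 11 solute carriers, 1 lay on chromosome 18, where most of the zinc finger genes were. The solute carrier below the median of all genes was the mitochondrial SLC25A46 on chromosome 7, at 0.322 RPKM. TERT, the catalytic subunit of telomerase, lay among them with 2.60 ± 0.818 RPKM over 6 windows, from 1.52 to 3.65 RPKM. It was 762 kb from the end of chromosome 20.

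Smaller groups gave few values. All 5 TMEM genes were between 0.538 and 2.75 RPKM. MIR185 held 3.49 RPKM on chromosome 17 and MIR2302 0.956 RPKM on chromosome 12. The ribosomal protein gene RPS7 held 0.745 RPKM on chromosome 8, and RPS6KA5, a kinase gene caught by the same name pattern, 0.298 RPKM on chromosome 10. The olfactory receptor OR5M10 held 0.00760 RPKM in its window. None of the chromatin and DNA methylation enzymes listed lay in a last megabase.

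The labelled genes nearest to the end were mostly LOC genes and mostly low. On 28 chromosomes with a label this gene held a median of 0.293 RPKM, and 11 were above 0.5 RPKM. The range ran from 0.00836 RPKM at HSFY2, a heat shock factor gene at the end of chromosome 17, to 19.1 RPKM at LOC789329 on chromosome 3, of which 99.2% came from 1 window. PKP1, a desmosome plakophilin, held 1.80 RPKM at the end of chromosome 16, TRABD 1.79 RPKM at the end of chromosome 5 and ACOX3, a peroxisomal acyl-CoA oxidase, 1.51 RPKM at the end of chromosome 6. PWWP2B held 1.71 RPKM within 3 kb of the end of chromosome 26. In contrast PDCD2 on chromosome 9 held 0.0402 RPKM at the same distance.

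The ages were compared within animals. Relative to the rest of the autosomes, the signal of the last megabases at 5 months differed from that at 16 months by a log2 ratio of −0.03 in animal 1, −0.28 in animal 2 and 0.19 in animal 3. The mean was −0.04 ± 0.235 (SD, n = 3), positive in 1 of 3 animals, with an exact permutation p of 0.75 where 3 animals allow no less than 0.25. The animals thus went different ways and the mean was smaller than their spread. By the median window the mean log2 ratio was 0.27. In the rest of the autosomes the median window held 1 and 7 reads in animal 1 at 5 and 16 months. It held 7 and 2 reads in animal 2 and 5 and 7 in animal 3. At so few reads the median moves in steps of whole reads, so the 0.27 says little about age. By chromosome, the ratio of the last megabase to the rest was higher at 5 months on 10 of 29 chromosomes in animal 1, on 4 in animal 2 and on 21 in animal 3. On 4 chromosomes the 3 animals had the same direction. The direction in animal 1 depended on the scaling, since in CPM of 1 Mb bins with TMM factors the counts were 27, 0 and 26. Animals 2 and 3 were opposed on most chromosomes under both scalings.

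No last megabase was called by age as a whole. Across all 1 Mb bins, paired by animal, the edgeR fit called 0.0791% (2 of 2528) at an FDR below 0.1 and 0 of the 29 last megabases. Of these 29, 0 had an unadjusted edgeR p below 0.05, against 0.752% of all bins. DESeq2 called 0 of the 29 and 0 of all bins. Their log2 fold changes, positive where 5 months is higher, lay between −0.18 and 0.11. The lowest p belonged to chromosomes 1, 13, 27, 7 and 28, the first with an unadjusted p of 0.211 and an FDR of 0.999 by edgeR. Without animal 2 the same test called 18 of 29, all higher at 5 months, but 65.7% of all bins were then called.

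Single windows gave a few calls. Of the 9684 windows, 6204 (64.1%) held at least 1 CPM in at least 3 libraries and could be tested, CPM being counts per 1000000. In the rest of the autosomes 11.4% could. At an FDR (false discovery rate) below 0.1 and a change of at least 2-fold, 10 of the 6204 were called (0.161%), where 0.185% of all tested windows were called (194 of 104658). Of the 6204, 3 were higher at 5 months (0.0484%) and 7 at 16 months (0.113%). Of all tested windows 0.105% were called higher at 5 months and 0.0803% at 16 months. The share at the ends was near that of all windows. The calls were fragile. Without the animal as a block 0 of the windows at the ends were called by edgeR. Of them 55 had an unadjusted edgeR p below 0.05 (0.887%, against 1.22% of all tested windows). DESeq2 with the block called 0 and had 81 below 0.05 (1.31%, against 2.17% of all). Leaving out animal 1, 2 or 3 gave 0, 2 and 46 calls at the ends. Without animal 2 the 2 were 0.0317% of the windows tested at the ends, against 0.0597% of all. Without animal 3 the 46 were 0.741% of the windows tested at the ends, where 1.24% of all tested windows were called (1278 of 103419).

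The lowest FDR belonged to an unlabelled window of chromosome 20 (72035918 to 72038917), 3 kb from the end. It held 1.56, 2.95 and 4.37 CPM in animals 1, 2 and 3 at 5 months and 7.04, 7.13 and 6.25 CPM at 16 months. The ages did not overlap and the log2 fold change was −1.27 ± 0.220 (SE, FDR = 0.000255 by edgeR). Its SE rests on a variance drawn mostly from all windows, so it reflects little of the spread between these animals. An unlabelled window of chromosome 1 (158287501 to 158290500), 45 kb from the end, rose from 1.29 ± 0.805 CPM (SD, n = 3) at 5 months to 3.00 ± 0.564 CPM at 16 months (log2 fold change −1.33 ± 0.305, FDR = 0.0224 by edgeR). On chromosome 12 (91130522 to 91133521), 27.1 kb from the end, another rose from 0.937 to 2.39 CPM, a log2 fold change of −1.56 ± 0.383 (FDR = 0.0431 by edgeR). The window of LOC100271685 on chromosome 15 (85272657 to 85275656) rose from 1.53 to 3.08 CPM at 21 kb from the end (FDR = 0.0824 by edgeR). In these 4 windows every library at 16 months exceeded every library at 5 months. The log2 fold change on chromosome 1 was −0.87 without animal 2, and that on chromosome 12 −2.39 without animal 3.

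The remaining windows higher at 16 months overlapped between the ages. On chromosome 10 the window of C10H15orf43 (104225601 to 104228600) held 3.83 ± 2.91 CPM at 5 months and 8.13 ± 5.71 CPM at 16 months, and in animal 3 it was higher at 5 months. The window of SPG11, the spatacsin gene, on the same chromosome (104030601 to 104033600) held 9.28 ± 7.49 and 19.8 ± 14.5 CPM, and in animal 1 it went from 7.22 to 34.3 CPM. Without animal 1 the log2 fold changes of these windows were −0.53 and −0.47, against −1.12 and −1.07 with it, and without animal 3 that of SPG11 was −1.62. In both, stacks of reads were high, with a highest depth of 0.774 and 0.815 of the reads. The window of SORCS2, a sorting receptor of neurons, on chromosome 6 (118926582 to 118929581) held 1.67 and 3.35 CPM.

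Of the 3 windows higher at 5 months, the unlabelled one on chromosome 2 (136453334 to 136456333) had no overlap between ages. It held 5.24, 3.25 and 4.16 CPM in animals 1, 2 and 3 at 5 months and 2.05, 1.68 and 2.29 CPM at 16 months (log2 fold change 1.07 ± 0.236, FDR = 0.0156 by edgeR). LOC100298353 on chromosome 29 (51381219 to 51384218) held 4.69 and 2.22 CPM, and PRKCA on chromosome 19 (63452675 to 63455674), which encodes protein kinase C alpha, 3.51 and 1.74 CPM.

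In all, 9 of the 10 windows moved the same way in the 3 animals. No overlap between the ages was seen in 5 of the 10 and in 3.77% of the 6204 tested. The 10 were called on these same values, so neither count supports the calls. Of the 7 windows higher at 16 months, 5 lay within the last 100 kb, where 7.46% of the tested windows lay. This position was seen after the calls were made and was not tested.

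**Figure D5:**
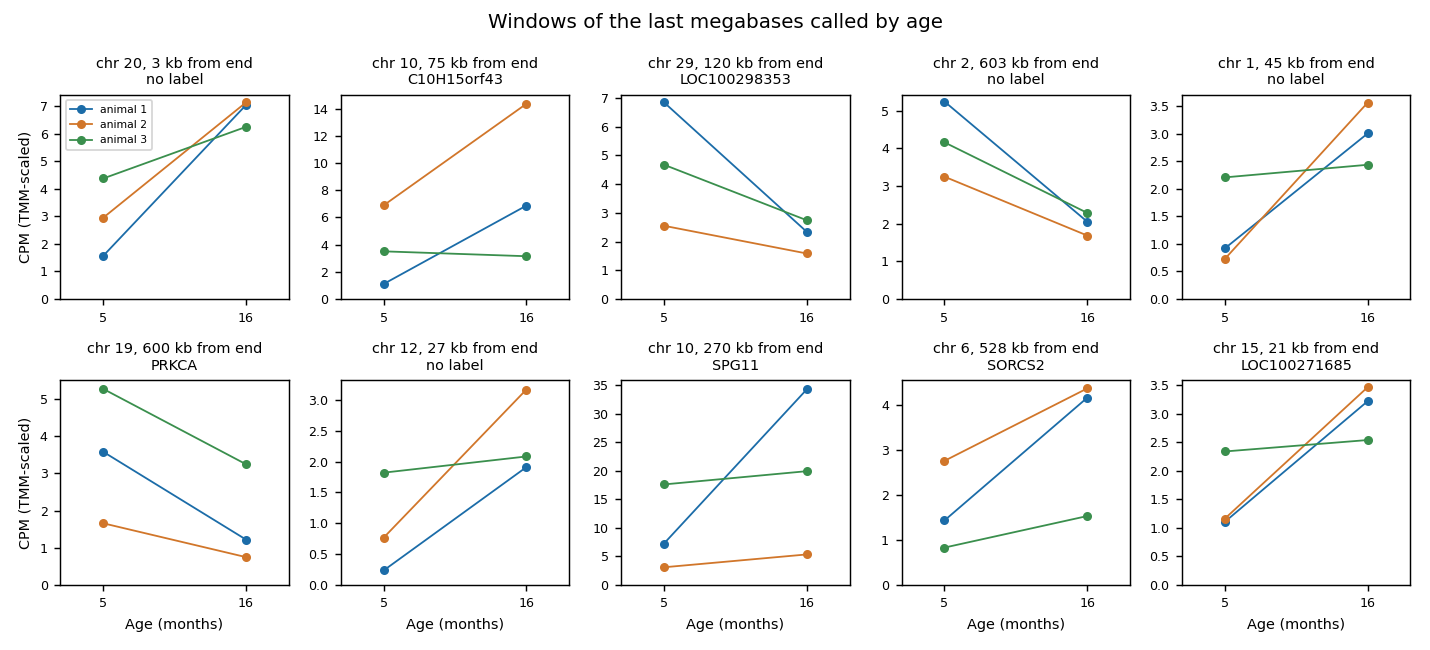
CPM (scaled by TMM factors) of the 10 windows of the last megabases called by age, in order of p, at 5 and 16 months, with a line for each animal and an axis from 0 in each panel. In 4 of the 7 windows that rise every value at 16 months exceeds every value at 5 months, and in the window of C10H15orf43 animal 3 falls.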

How the data were processed

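MIRA-Seq libraries of dermal fibroblasts from 3 heifers at 5 and 16 months were grouped by the age and animal in the labels. The authors aligned trimmed reads to UMD v3.1 with NextGENe 2.3.4 and deposited raw read counts of sequential 3 kb windows. The highest depth of each window, a coverage signal also deposited by the authors, was used to find read stacks. How PCR copies were handled is not stated in the labels or methods.

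RPKM was computed here from the counts, the window length and the matched reads in the file headers. Ratios of regions were taken within libraries and tested with exact two-sided sign-flip permutations. Ages were compared in R 4.3.3 with edgeR 4.0.16 (quasi-likelihood test, animal as block, TMM factors, at least 1 CPM in 3 libraries, FDR below 0.1 and 2-fold for windows, FDR below 0.1 for 1 Mb bins, Benjamini-Hochberg adjustment), with DESeq2 1.42.0 as an alternative and limma 3.58.1 loaded by edgeR. Positive log2 fold changes are higher at 5 months. Python 3.11.15, numpy 2.4.6, pandas 2.3.3, scipy 1.17.1 and matplotlib 3.10.9 did the rest. The scripts were tested on simulated data.

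Library depth was 19.9 to 43.6 M window reads, which bears on counting error only. Animals pair the libraries, whose deviations from their age mean correlated within animals 1, 2 and 3 at 0.29, 0.54 and 0.71 over the windows tested, 0.16, 0.61 and 0.66 over those of the last megabases and 0.36, −0.38 and 0.78 over 1 Mb bins. Only 1 culture was sequenced per animal and age, so spread between cultures cannot be told apart from the age difference within an animal. In the edgeR fit a window's variance was drawn mostly from all windows, with 177.6 prior against 2 residual degrees of freedom. The p-value, FDR and SE of a window therefore reflect its own spread between cultures little. The named chromosomes are the 5 highest and 5 lowest ratios, the named genes the 15 highest and 5 lowest by mean RPKM under the window minimum set for each list, the genes nearest to each end and fixed name groups. The named windows are the 10 highest, those on chromosome 11 given mostly as a run, and all those called by age. The members and lists were chosen with earlier results of these data known, and the comparison of promoter, gene-body and intergenic windows was added after the data were seen. Gene labels are those of the files, and 376 of 535 matched a RefSeq symbol and 27 a synonym. Coordinates are the files' own, 1-based. Alternatives were another summary, filter, normalization, region width, weighting of chromosomes or test, and leaving out each animal. A gene of the name groups is not reported here.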

Additional observations from a re-analysis of the deposited data

Results flagged for a closer look

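The windows that run over the end of a chromosome into the next sequence entered no signal ratio. The 1 with the most reads is given here, far above the limit of 3 that a count of 0 allows. The window from 85296657 on chromosome 15 held 24905 reads over the 6 libraries. It had 1526 and 3932 reads in animal 1 at 5 and 16 months, 1930 and 1153 in animal 2, and 10212 and 6152 in animal 3, so that the libraries of animal 3 were highest. Those of chromosomes 25 and 16 held nearly as many, 24741 and 21476 reads, with the libraries of animal 3 again highest. In that of chromosome 18 the libraries of animal 2 were highest. Over all 29 such windows the total ran from 3 to 24905 reads with a median of 633. The files do not show how much of such a window lies on either sequence, so no level per kb was computed.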

How the results depend on the processing

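The ratio of the last megabases to the rest, to the first megabase and between labelled and unlabelled windows kept its direction and its side of the threshold when medians, windows outside the top 1% or all but the last window were taken. Another region width was tried for the ratio to the rest and the labelled ratio, with the same outcome, and was not run for the first megabase. With each chromosome weighted alike the ratio to the rest and the labelled ratio kept their direction. Their log2 values were then lower, at 1.82 and 0.21, against 2.25 and 0.46 with windows pooled. Leaving out 1 animal leaves 4 libraries, for which the smallest exact permutation p is 0.125, so the loss of significance there says nothing about stability. The log2 ratios then ranged from 2.07 to 2.55 against the rest, 0.21 to 0.34 against the next megabase, 0.85 to 1.21 against the first and 0.57 to 0.66 for the last 100 kb. They ranged from 0.44 to 0.48 for labelled windows, from 0.24 to 0.49 for the difference of that ratio from the rest, from −0.44 to −0.39 for promoters against gene bodies and from 0.47 to 0.50 for gene bodies against intergenic windows. The age ratio ranged from −0.16 to 0.076, turning positive without animal 2. It was 0.27 by the median, which says little because the median window of the rest held only 1 to 7 reads in a library.

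The last 100 kb turned to −1.64 by the median, −0.55 without the top 1% of windows and −0.22 without the run on chromosome 11, an alternative chosen after seeing the data. The excess over the next megabase fell to 0.081 and 0.17 under those last alternatives (adjusted exact permutation p = 0.0625). The labelled difference turned to −0.75 without the top 1%. Chromosomes 13, 7 and 1 turned to log2 ratios of 0.25, 1.03 and 0.59 without the top 1% and 0.79, 1.45 and 0.71 by the median, and chromosome 27 to 0.045 by the median. Promoters exceeded intergenic windows by 0.58 by the median, 0.13 without the top 1% and 0.30 without the run on chromosome 11 (adjusted exact permutation p = 0.03125). For the reversals other than those built on windows left out, the cause was not tested.

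For age, several settings ended the calls. The libraries are paired by animal, and without the replicate block 0 windows of the last megabases were called, and 10 with it. DESeq2 called 0, TMM factors from all windows 0 and no CPM filter 0. A filter of 0.5 CPM gave 2 (0.0277% of those tested at the ends, against 0.0534% of all tested windows). Library size alone gave 5 (0.0806%, against 0.0946%). The likelihood-ratio test, RLE factors and autosomes alone each kept 10 (0.161%, against 0.199%, 0.192% and 0.181% of all). An FDR of 0.05 kept 8 (0.129%, against 0.131%). Leaving out an animal gave 0 to 46 calls among windows (without animal 3, 1.24% of all tested windows were called and 0.741% of those at the ends). Among the last megabases as bins it gave 0 to 18, the 18 without animal 2, where 65.7% of all bins were called. The block changed no call among bins of the last megabases. All 10 windows kept their direction under these settings. Of the windows at the ends, 35.9% fell under the count minimum and were not tested by age.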
